A study of Mus musculus with 3 samples.

Results

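The secondary and tertiary granule genes of neutrophils were followed in mouse bone marrow 14 days after irradiation. The 10 genes were Ltf, Camp, Ngp, Lcn2, Chil3, Cd177, Mmp8, Mmp9, S100a8 and S100a9, each taken by its symbol from the 56980 genes listed in the deposited count matrices, where every symbol had 1 row. Bone marrow nucleated cells (BMNCs) came from male C57BL/6 mice, whose age in weeks is not given in the sources used here. The Control group was not irradiated, the IR group received 6 Gy of gamma irradiation and solvent, and the IR+CBD group received 6 Gy and 4 intraperitoneal injections of cannabidiol (CBD) at 50 mg/kg. Whether the Control mice also received solvent is not stated. Each group is 1 droplet library made at day 14 from 3 pooled mice, after Lin-Kit+, Lin-Kit- and Lin+ cells had been sorted and remixed at 5:4:1, so shares of cells describe this mix and not marrow. Lin+ cells, which include mature granulocytes, were thus the smallest part of the mix. With 1 library per group there are no replicates, and mouse, sort and library cannot be told apart from treatment.

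Neutrophils load their granules in the order in which they mature. Primary granule proteins such as myeloperoxidase and neutrophil elastase are made in promyelocytes, secondary (specific) granule proteins in myelocytes and metamyelocytes, and tertiary (gelatinase) granule proteins in band cells, so that the mRNA of each set marks a stage. The transcription factor C/EBP epsilon is required for the expression of secondary granule genes. Ltf encodes lactoferrin, which binds iron, Camp the precursor of the cathelicidin antimicrobial peptide, Ngp a neutrophil granule protein of the cystatin and cathelicidin superfamily, and Lcn2 lipocalin-2, which withholds bacterial siderophores. Chil3 encodes Ym1, a chitinase-like lectin also made by monocytes and macrophages, and Cd177 a surface glycoprotein stored in secondary granules. Mmp8 is neutrophil collagenase and Mmp9 gelatinase B, the defining enzyme of tertiary granules. S100a8 and S100a9 encode the subunits of calprotectin, a calcium-binding heterodimer that lies mainly in the cytosol and not in a granule.

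In the GENCODE M21 annotation of GRCm38, 4 of the 10 genes lay on chromosome 9: Mmp8 (ENSMUSG00000005800, chr9:7558456-7568485, plus strand), Camp (ENSMUSG00000038357, chr9:109847379-109849617, minus strand), Ngp (ENSMUSG00000032484, chr9:110419747-110423012, plus strand) and Ltf (ENSMUSG00000032496, chr9:111019271-111042767, plus strand). Camp, Ngp and Ltf lay far from Mmp8 and close to each other on that chromosome. S100a8 (ENSMUSG00000056054, chr3:90668978-90670035, plus strand), S100a9 (ENSMUSG00000056071, chr3:90692632-90695721, minus strand) and Chil3 (ENSMUSG00000040809, chr3:106147554-106167564, minus strand) lay on chromosome 3, where S100a8 and S100a9 lay near each other. Lcn2 (ENSMUSG00000026822, chr2:32384633-32388252, minus strand), Mmp9 (ENSMUSG00000017737, chr2:164940780-164955850, plus strand) and Cd177 (ENSMUSG00000052212, chr7:24743983-24760311, minus strand) lay apart from the others.

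RefSeq promoters of the GRCm38.p6 assembly were at hand for 9 of the 10 genes, all but Mmp9, and the 250 bases before each start were searched on both strands for 4 sets of letters. The C/EBP letters TTGCNNAA occurred in 5 of the 9 (Lcn2, S100a9, Mmp8, Ngp and Ltf), against 9.56% of the 32851 promoters of that length. The PU.1 letters GAGGAAGT occurred in 2 of the 9 (S100a8 and Mmp8), against 2.44% of all promoters. The letters TGTGGT of RUNX occurred in 1 (S100a9), against 14.0%, and the TATA box letters TATAAA in 2 (S100a8 and Cd177), against 12.4%. None of these matches overlapped another. A match describes the letters only, since no binding was measured.

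The 60 bases around the first C/EBP match are shown for the 4 genes in which they lay before the start in both annotations, because C/EBP letters were the set most of these promoters shared. Sequences run from 5′ to 3′ on the strand of the gene, and capitals mark the match.
Ltf, chr9:111019191-111019250, plus strand: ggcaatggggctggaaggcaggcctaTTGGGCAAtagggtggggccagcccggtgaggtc
Ngp, chr9:110419644-110419703, plus strand: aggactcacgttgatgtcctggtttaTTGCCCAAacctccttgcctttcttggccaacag
Mmp8, chr9:7558369-7558428, plus strand: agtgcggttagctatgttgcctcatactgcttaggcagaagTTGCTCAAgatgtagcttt
S100a9, chr3:90695912-90695971, minus strand: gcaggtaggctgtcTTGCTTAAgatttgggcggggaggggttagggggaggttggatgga

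Of 36035 barcodes, 31292 had at least 200 genes and at most 5% mitochondrial UMIs (unique molecular identifiers, which tag each captured RNA molecule), with 10674, 10345 and 10273 cells in Control, IR and IR+CBD. These cells held 194839224, 202361682 and 173466089 UMIs, with medians of 12479.5, 14211 and 12502.0 UMIs per cell. Pairs of libraries shared 35 to 51 barcode sequences. Cells were placed by the UMIs of a few genes: at least 10 of Elane (neutrophil elastase, a primary granule gene), at least 10 of Fcnb (ficolin-B, made by immature neutrophils), at least 1 of Ly6g (the neutrophil surface antigen), at least 5 of Retnlg (resistin-like gamma, made by mature neutrophils), and at least 1 each of Csf1r and Ccr2 (monocyte receptors). Cells with at least 2 UMIs of Cd79a, a B cell receptor subunit, were used to show the background, since B-lineage cells should lack granule mRNA.

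The Ly6g cells numbered 1139, 1320 and 1398, the Retnlg cells 1004, 1076 and 1215, and the Fcnb cells 224, 220 and 260 in Control, IR and IR+CBD. The Elane cells numbered 2225, 2361 and 2672, the monocyte cells 1353, 1238 and 922 and the Cd79a cells 3524, 4072 and 3456. The gates overlapped: of the Control Ly6g cells, 75.7% also passed Retnlg and 11.7% Fcnb, and of the Control monocyte cells 67.9% also passed Elane. In the Ly6g cells 10 neutrophil markers summed to 11159 (Control), 11922 (IR) and 13015 (IR+CBD) UMIs per 1000000 (CPM). These included Ly6g, which defines the gate, and the gate genes Retnlg, Elane and Fcnb, so their sum is partly set by the gate. In the same cells 10 B cell markers summed to 663, 734 and 548 CPM and 10 monocyte markers to 1070.1, 1097 and 933 CPM. Of these monocyte markers, 8 of 10 were nevertheless lower in IR than in Control, 6 of them at least 20% lower, with a median log2 ratio of -0.54, and 9 of 10 were lower in IR+CBD than in Control, with a median of -0.84. The 10 T and NK cell markers summed to 147, 139.9 and 152 CPM there, 10 eosinophil, basophil and mast cell markers to 63.6, 131 and 95.8 CPM and 10 stem and multipotent cell markers to 159, 114 and 136 CPM. Erythroid markers, led by the globins, differed more, at 781 (Control), 4914 (IR) and 4455 (IR+CBD) CPM. Of all these markers, 1 was at 0 in the Ly6g cells of Control (a mast cell, basophil or eosinophil marker) and 1 in those of IR (a T or NK cell marker).

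In all kept cells the 10 genes together took 3.14 (Control), 3.28 (IR) and 3.88 (IR+CBD) of every 100 UMIs, most of them from the calprotectin genes. S100a8 stood at 11444 (Control), 11351 (IR) and 14226 (IR+CBD) CPM. S100a9 stood at 13363 (Control), 14081 (IR) and 16404 (IR+CBD) CPM. Both were highest in IR+CBD, and for S100a8 Control and IR differed by under 1%. Among the secondary granule genes, Camp stood at 2372 (Control), 2645 (IR) and 3023 (IR+CBD) CPM. Ngp stood at 2089 (Control), 2308 (IR) and 2565 (IR+CBD) CPM and Lcn2 at 1184, 1328 and 1453 CPM. Each of these was lowest in Control and highest in IR+CBD.

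Ltf, for lactoferrin, stood at 457 (Control), 551 (IR) and 563 (IR+CBD) CPM, so both irradiated libraries were above Control. Chil3 stood at 312 (Control), 337 (IR) and 329 (IR+CBD) CPM, the narrowest range among the 10 genes relative to its level, and Cd177 at 59.8, 60.3 and 68.5 CPM. The metalloproteinases were sparse by comparison with their own level in mature cells: Mmp8 stood at 72.1 (Control), 80.4 (IR) and 81.9 (IR+CBD) CPM and Mmp9 at 65.5, 81.9 and 80.3 CPM. Control was the lowest library for 9 of the 10 genes, all but S100a8. The least abundant of the 10, Cd177 in Control, still rested on 11652 UMIs, and its exact Poisson 95% interval ran from 58.7 to 60.9 CPM. The intervals of levels, shares and ratios given here are 95% intervals that cover counting error only. The interval of a median over the 10 genes covers the spread between these genes instead, and reaches 95% only if the genes are independent. None of the intervals covers differences between mice. Reads of Chil3 could in part come from its near-identical relatives, and Chil4, the closest of them, was at 0.166, 0.0937 and 0.0520 CPM in the Ly6g cells.

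**Figure D1:**
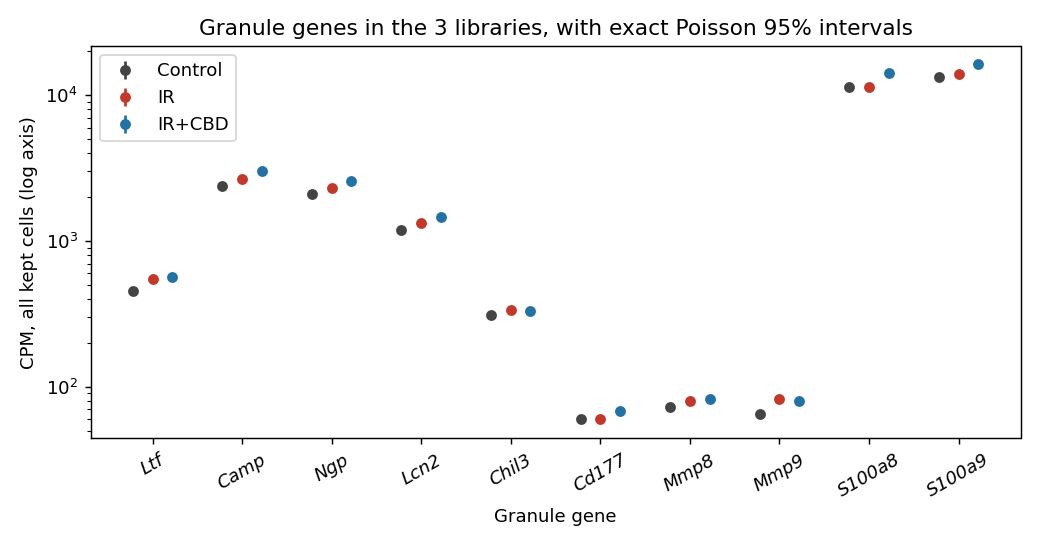
CPM of the 10 granule genes in all kept cells of Control, IR and IR+CBD, on a log axis, with exact Poisson 95% intervals that are mostly smaller than the points. S100a8 and S100a9 lie at 11351 CPM or more in each library, and Cd177, Mmp8 and Mmp9 lie between 59.8 and 81.9 CPM.

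Most of these UMIs lay in a small share of cells. Cells passing Fcnb, Ly6g or Retnlg made up 12.8 (Control), 14.4 (IR) and 15.99 (IR+CBD)% of cells and 11.3, 12.0 and 13.1% of UMIs. They held 98.3, 98.8 and 98.8% of the Mmp9 UMIs, 97.4, 98.6 and 98.0% of the Ltf UMIs and 96.7, 98.3 and 97.5% of the Camp UMIs in Control, IR and IR+CBD. Chil3 was the least restricted, with 83.9, 90.3 and 91.3%. Of the Chil3 UMIs in Control, 6.16% lay in monocyte cells that passed neither a neutrophil gate nor Elane, and 5.86% in Elane cells outside the neutrophil gates.

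Across the stages, 8 of the 10 genes appeared with Fcnb and the 2 metalloproteinases with Retnlg. Camp stood at 1123 (Control), 1094 (IR) and 1091 (IR+CBD) CPM in Elane cells, at 32866, 42439.6 and 38437 CPM in Fcnb cells, at 21212, 21379 and 22622 CPM in Ly6g cells and at 17787, 18819 and 19503 CPM in Retnlg cells. Its level in Fcnb cells was 29.3 to 38.8 times that in Elane cells across the 3 libraries, and its level in Retnlg cells was below that in Fcnb cells in each library. Ngp followed the same order in these overlapping gates, at 23474, 28901 and 25679 CPM in Fcnb cells and 18381, 18979.8 and 19135 CPM in Retnlg cells. Chil3 differed most along the gates among the 8, from 4454, 5548 and 4511 CPM in Fcnb cells to 2389, 2509 and 2247 CPM in Ly6g cells and 1746, 1952 and 1752 CPM in Retnlg cells.

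Lcn2 and Ltf had similar levels over the 3 neutrophil gates, which share cells. Lcn2 stood at 12101, 14206 and 12458 CPM in Fcnb cells and 10916, 11980.1 and 11551 CPM in Retnlg cells of Control, IR and IR+CBD. Ltf stood at 4297, 5011 and 4393 CPM in Fcnb cells and 4402, 5166 and 4696 CPM in Retnlg cells. Cd177, the surface glycoprotein, stood at 499.8, 583 and 522 CPM in Fcnb cells, 557, 514 and 538 CPM in Ly6g cells and 593, 568 and 569 CPM in Retnlg cells, where it was above its level in Ly6g cells in each library. The calprotectin genes also kept to a narrow range, S100a8 between 93376 and 118030 CPM and S100a9 between 117359 and 140638 CPM in these gates.

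The metalloproteinases were nearly absent from Fcnb cells. Mmp8 stood at 21.0 (Control), 20.3 (IR) and 35.5 (IR+CBD) CPM in Fcnb cells, from 134, 99 and 187 UMIs, and at 974, 1050.01 and 922 CPM in Retnlg cells. Mmp9, the gelatinase, stood at 43.1, 49.2 and 54.3 CPM in Fcnb cells and at 910.4, 1061 and 902 CPM in Retnlg cells. The level of Mmp8 in Ly6g cells was 19.3 to 34.6 times that in Fcnb cells over the 3 libraries, and that of Mmp9 12.6 to 14.9 times, while for the other 8 genes this ratio lay between 0.452 and 1.11. In each library Mmp8 and Mmp9 were lowest in Fcnb cells and highest in Retnlg cells among these gates.

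**Figure D2:**
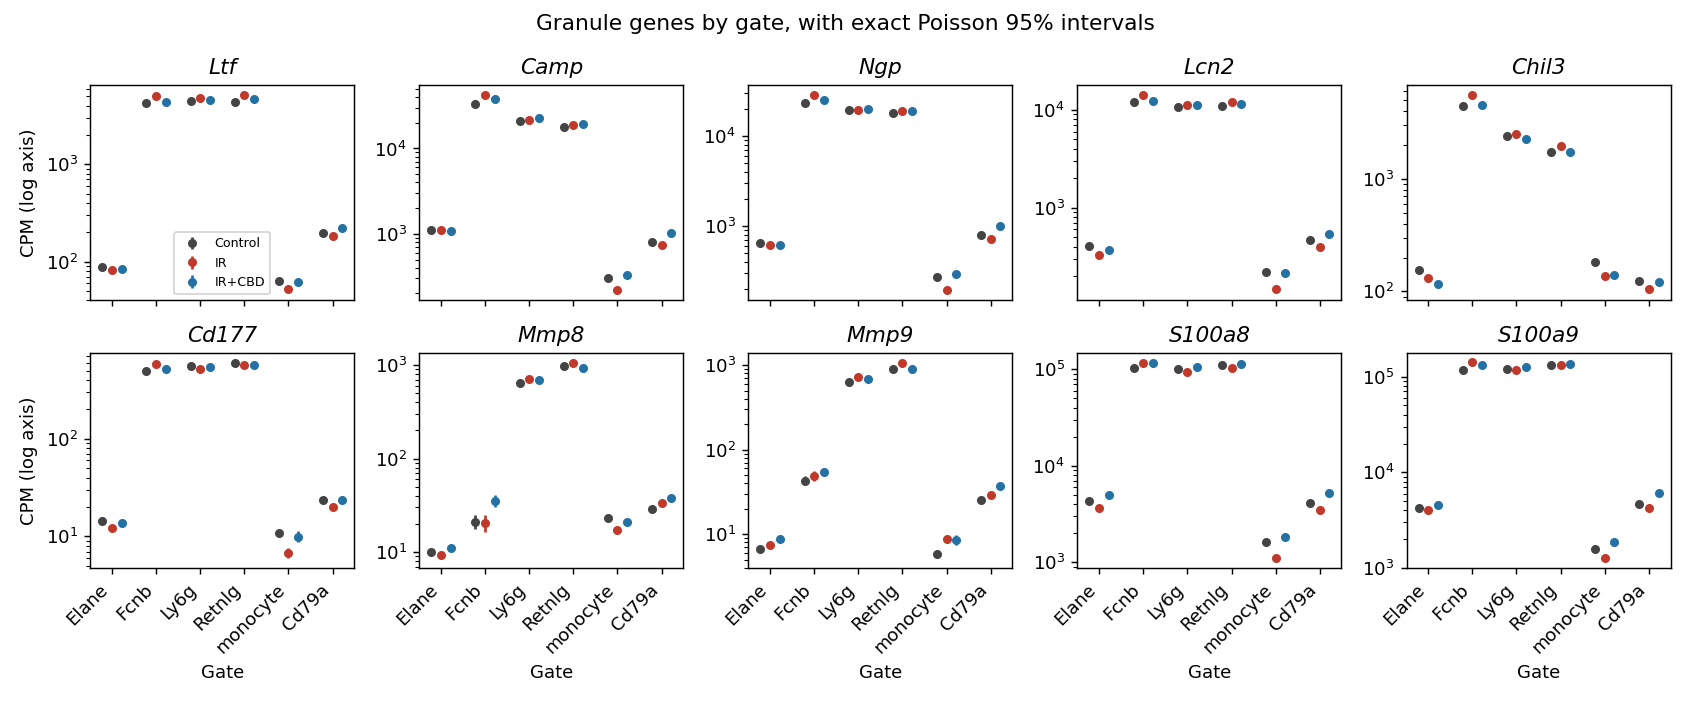
CPM of each granule gene on a log axis in cells passing each gate, with 1 point per library and exact Poisson 95% intervals. Mmp8 and Mmp9 lie at 20.3 to 54.3 CPM in Fcnb cells and at 902 to 1061 CPM in Retnlg cells, whereas the other 8 genes are already near their highest level in Fcnb cells.

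Because the gates overlapped, each cell was also counted once, in the first of Retnlg, Ly6g, Fcnb, Elane and monocyte that it passed, after setting Cd79a cells aside. This left 81, 77 and 103 cells with Fcnb and no later gate, 243, 280 and 285 with Ly6g but no Retnlg, and 937, 1003 and 1139 with Retnlg. Mmp9 then rested on 6, 8 and 1 UMIs in the Fcnb class, or 2.78, 4.72 and 0.515 CPM, and stood at 92.0, 94.0 and 101 CPM in the Ly6g class and 992, 1141 and 937 CPM in the Retnlg class. Mmp8 rested on 33, 1 and 10 UMIs in the Fcnb class and stood at 20.9, 27.8 and 37.0 CPM in the Ly6g class and 1058, 1117 and 956 CPM in the Retnlg class. Between the Ly6g and Retnlg classes the level of Mmp8 thus differed 25.8 to 50.5-fold and that of Mmp9 9.31 to 12.1-fold, so the collagenase was the later of the pair by this measure in each library.

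Some of the other genes stood in another order once no cell was shared. Ngp stood at 10904 (Control), 18044 (IR) and 13862 (IR+CBD) CPM in the Fcnb class and 20106, 20822 and 20060.3 CPM in the Retnlg class, so it was higher in the later class in each library, the reverse of the overlapping gates. Lcn2 was 1.63 to 2.12 times and Ltf 2.63 to 3.43 times as high in the Retnlg class as in the Fcnb class over the 3 libraries. Camp stood at 20364, 31974.5 and 26734 CPM in the Fcnb class, 27189, 27231 and 30087 CPM in the Ly6g class and 19503, 20745 and 20576.0 CPM in the Retnlg class. Among these 3 classes it was thus highest in the Ly6g class in Control and IR+CBD and in the Fcnb class in IR, and lowest in the Retnlg class in each library. Chil3 was also lowest in the Retnlg class among the 3, at 0.586 to 0.707 times its level in the Fcnb class. In Elane cells outside the neutrophil gates Camp stood at only 60.9 (Control), 44.6 (IR) and 74.2 (IR+CBD) CPM. That was 0.868 to 2.12 times its level in Cd79a cells that passed no myeloid gate. Camp in the Fcnb class was 335 to 718 times its level in these Elane cells.

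Ratios of UMIs between pairs of these genes also ordered the 3 classes. Camp UMIs per Ngp UMI stood at 1.87 (Control), 1.77 (IR) and 1.93 (IR+CBD) in the Fcnb class, 1.32, 1.30 and 1.36 in the Ly6g class and 0.970, 0.996 and 1.03 in the Retnlg class. Ltf per Camp ran the other way, at 0.0713, 0.0668 and 0.0537, then 0.148, 0.153 and 0.139, then 0.245, 0.271 and 0.239. For both pairs no value of a class overlapped a value of the next class in any library. Chil3 per S100a9 was alike in the Fcnb and Ly6g classes, at 0.0361, 0.0338 and 0.0304 and 0.0361, 0.0394 and 0.0340, and lower in the Retnlg class, at 0.0130, 0.0150 and 0.0130. These ratios come from genes of 1 cell sum, so the total of other RNA in the class does not enter them.

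**Figure D3:**
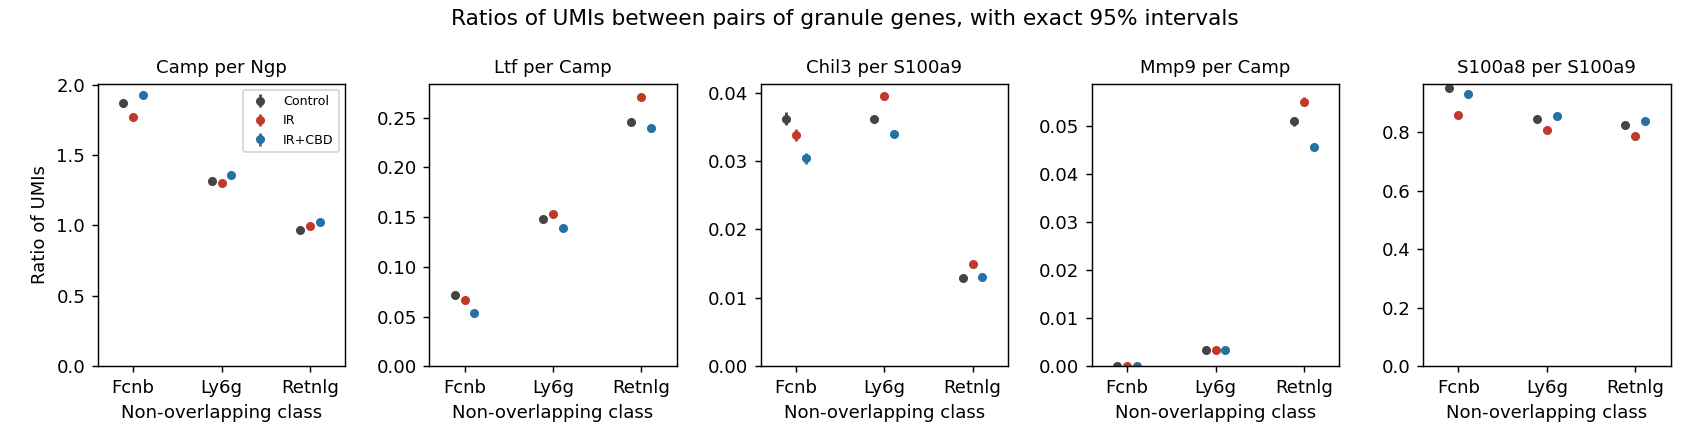
UMIs of one granule gene per UMI of another in the non-overlapping Fcnb, Ly6g and Retnlg classes, with exact 95% intervals, for 5 pairs and 3 libraries on axes that start at 0. Camp per Ngp is 1.77 or more in the Fcnb class and 1.03 or less in the Retnlg class, and Ltf per Camp is 0.0713 or less and 0.239 or more in these classes.

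Granule gene UMIs were also found in B-lineage cells, where free RNA and doublets were not told apart. In Cd79a cells that passed no myeloid gate, the 10 genes summed to 934 (Control), 629 (IR) and 547 (IR+CBD) CPM, of which S100a9 made 399.8, 274 and 235 CPM and Mmp9 1.48, 1.33 and 1.40 CPM. Single cells among them held up to 506, 449 and 40 Camp UMIs, where the median was 0. After every cell was thinned to 1000 UMIs, Camp was found in 71.5, 73.4 and 74.2% of Ly6g cells, in 5.85, 4.66 and 4.72% of these B-lineage cells and in 8.63, 7.12 and 7.71% of Elane cells. Before thinning, Camp was found in 84.5, 85.2 and 84.6% of Ly6g cells and 26.8, 21.3 and 19.4% of Cd79a cells, with median depths of 10799, 11633 and 10073 and 4042, 3852 and 3417 UMIs. S100a8 was found in 30.2, 23.6 and 28.5% of thinned Cd79a cells, so its presence in a cell is no sign of its expression there.

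By the same measure the metalloproteinases separated early from late neutrophils. Mmp8 was found in 1.79, 0.909 and 2.69% of thinned Fcnb cells and 62.5, 62.9 and 59.5% of thinned Retnlg cells, against 0.276, 0.184 and 0.125% of the B-lineage cells outside the myeloid gates. Mmp9 was found in 2.23, 3.18 and 6.15% of Fcnb cells and 66.3, 67.2 and 61.7% of Retnlg cells. Chil3, the Ym1 gene, was found in 85.3, 88.6 and 81.9% of Fcnb cells but only 40.4, 48.4 and 44.7% of Retnlg cells. S100a9 was found in 97.8, 98.2 and 96.9% of Fcnb cells and 100, 99.9 and 99.8% of Retnlg cells. Thinning left out at most 8 cells of any neutrophil gate in a library and at most 6 Cd79a cells, all of them under 1000 UMIs.

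**Figure D4:**
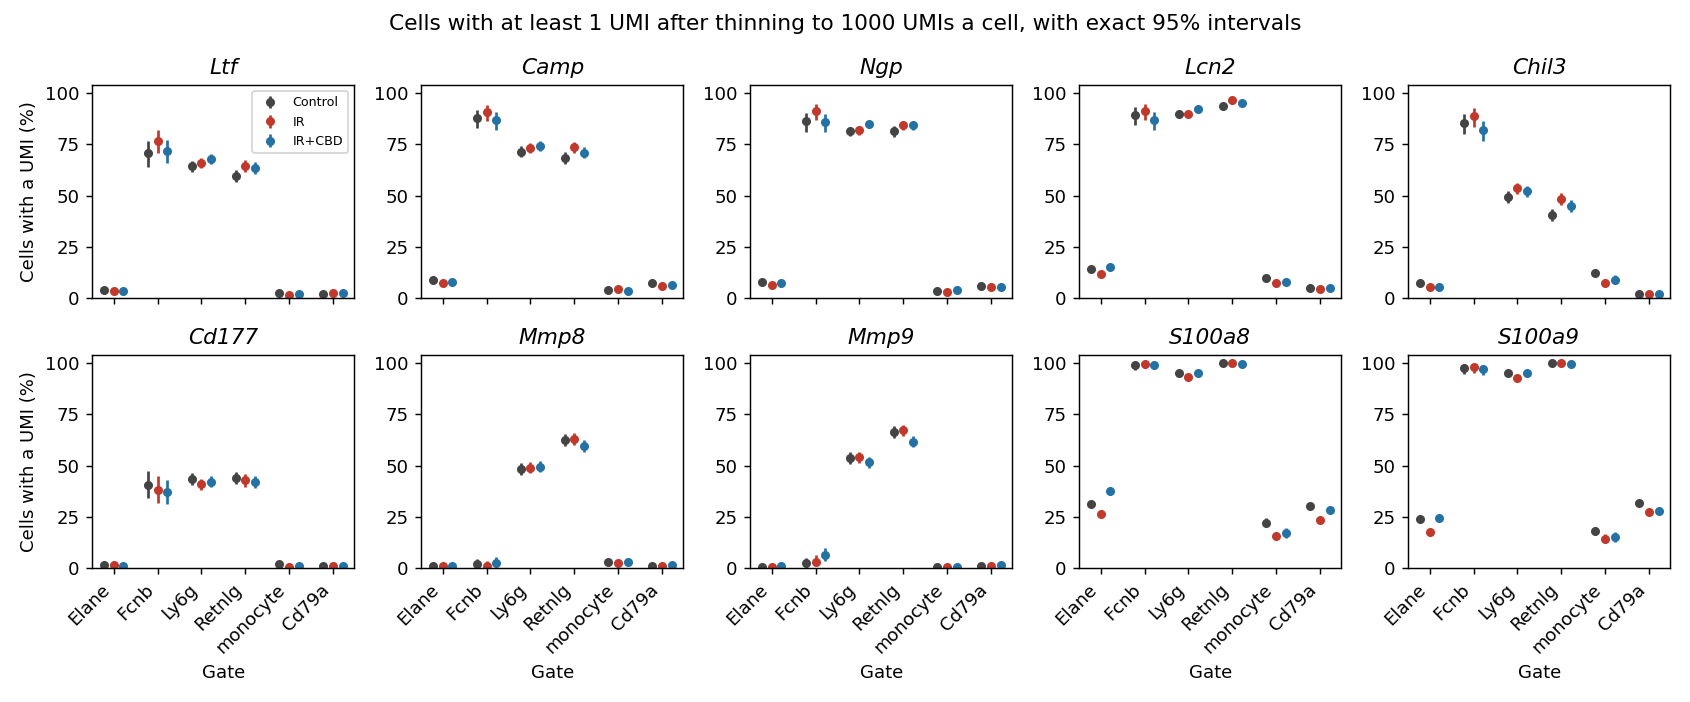
Percent of cells with at least 1 UMI of each granule gene after every cell was thinned to 1000 UMIs, by gate and library, with exact Clopper-Pearson 95% intervals on an axis from 0. The Cd79a cells show the background, which is 23.6% or more for S100a8 and 1.33% or less for Mmp9.

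In monocyte cells that passed no neutrophil gate and no Elane gate, 385, 268 and 245 cells in Control, IR and IR+CBD, 5 of the 10 genes stood above the B-lineage background in each library. Chil3 stood at 416 (Control), 478 (IR) and 329 (IR+CBD) CPM, against 12.5, 7.59 and 5.30 CPM in the B-lineage cells. Mmp8 stood at 61.8 (Control), 29.5 (IR) and 42.3 (IR+CBD) CPM against 1.26, 1.36 and 1.14 CPM, while Mmp9 was at 0.889, 1.02 and 0.193 CPM. The Mmp8 values rested on 556, 202 and 219 UMIs and those of Mmp9 on 8, 7 and 1. Cd177 was 5.55 to 11.5 times the B-lineage level, from 130, 49 and 57 UMIs, Lcn2 2.13 to 4.42 times and S100a8 1.51 to 2.30 times. Camp, Ngp and Ltf were below the B-lineage level in these cells, with ratios of 0.357 to 0.541, 0.336 to 0.581 and 0.451 to 0.595. S100a8 UMIs per S100a9 UMI stood at 2.05, 1.96 and 1.77 there and at 1.96, 2.09 and 2.15 in Elane cells outside the neutrophil gates, against 0.826, 0.788 and 0.840 in the Retnlg class and 0.875, 0.788 and 0.915 in the B-lineage cells.

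What irradiation left behind at day 14 was examined by setting IR over Control. In all kept cells 9 of the 10 genes were higher in IR and 1, S100a8, was lower, with ratios of CPM from 0.992 (0.990 to 0.994) for S100a8 to 1.251 (1.22 to 1.28) for Mmp9. Ltf was 1.21 (1.19 to 1.22) times Control, Camp 1.11 (1.11 to 1.12) times and Cd177 1.01 (0.983 to 1.03) times, the last with an interval that held 1. The median log2 ratio over the 10 genes was 0.15 (0.01 to 0.27), against -0.03 over the 11637 genes that reached 1000 UMIs in this pair of libraries. Of the 10, 1 gene (Mmp9) was at least 25% higher, where 6.79% of those 11637 genes did, and none was at or under 0.8-fold, where 12.9% were. The share of genes 25% higher is thus close to the background. Erythroid markers were higher in IR for 10 of 10 genes in all cells, with a median log2 ratio of 1.41, and their part in these ratios was not tested.

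The Ly6g and Retnlg gates held a larger share of cells in IR. Within the neutrophil gates together, the summed level of the 10 genes, mostly S100a8 and S100a9, was close to that in Control, but single genes differed. The share of Ly6g cells was 10.7 (Control), 12.8 (IR) and 13.6 (IR+CBD)%, in IR 1.20 (1.10 to 1.30) times Control, and that of Retnlg cells 9.41, 10.4 and 11.8%, in IR 1.11 (1.01 to 1.21) times Control. The share of Fcnb cells was 2.10, 2.13 and 2.53%, with a ratio of 1.01 (0.837 to 1.23). This gate depends on depth. When it was set on cells thinned to 1000 UMIs, with at least 3 Fcnb UMIs in place of 10, the ratio was 1.78, or 0.83 on the log2 scale. Depth and cutoff both differ there, so their parts cannot be told apart. The cells of these 3 gates together held 1.07 times the share of UMIs they held in Control, and within them the 10 genes summed to 0.999 times their Control level. Most of that sum came from S100a8 and S100a9, at 0.952 and 1.003 times Control. Mmp9 stood at 1.18 times Control within these gates, Ltf at 1.14, Mmp8 at 1.10 and Chil3 at 1.09. Lcn2 stood at 1.08, Camp at 1.06, Ngp at 1.05 and Cd177 at 0.966. Outside the cells of the 3 gates the sum of the 10 was 0.560 times Control. Ly6g itself was higher in IR, at 1.38 (1.34 to 1.42) times Control within the Ly6g cells and 1.57 (1.52 to 1.61) times in all cells, and this moves with the number of cells that pass the Ly6g gate. With at least 2 Ly6g UMIs required, the log2 ratio of the shares was 0.38 in place of 0.26.

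Within the neutrophil gates the 10 genes did not move as a block. In Ly6g cells Mmp9 stood at 1.16 (1.13 to 1.19) times Control, Mmp8 at 1.09 (1.07 to 1.12) and Ltf at 1.09 (1.08 to 1.10), while Ngp was at 1.00 (0.996 to 1.00). S100a8, a calprotectin subunit, was at 0.923 (0.921 to 0.924), Cd177 at 0.923 (0.898 to 0.948) and S100a9 at 0.965 (0.963 to 0.967). The same 3 genes were under 1 in Retnlg cells, at 0.934, 0.957 and 0.983, where Ltf was at 1.17 (1.16 to 1.19) and Mmp9 at 1.16 (1.14 to 1.19). None of the 10 was at least 25% higher or 20% lower in either gate, where 10.4% of 4749 genes in Ly6g cells and 8.45% of 3455 genes in Retnlg cells did. The medians over the 10 genes were 0.03 (-0.12 to 0.13) and 0.09 (-0.06 to 0.22) on the log2 scale, against -0.0043 and -0.02 over all genes, and both intervals held 0. The erythroid markers given above were higher in IR for 10 of 10 genes in Ly6g cells, with a median log2 ratio of 2.21, and their part in the ratios was not tested.

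In Fcnb cells 9 of the 10 genes were higher in IR, led by Camp at 1.29 (1.28 to 1.30) times Control, Chil3 at 1.246 (1.23 to 1.27) and Ngp at 1.23 (1.22 to 1.24). S100a9 was at 1.20 (1.19 to 1.20). The median log2 ratio was 0.23 (0.19 to 0.32), against -0.14 over 1325 genes. Of the 8 genes with at least 1000 UMIs there, 1 (Camp) was at least 25% higher and none was at least 20% lower. Of the 1325 genes, 46 were at least 25% higher and 234 at least 20% lower, and 21.1% were past either fold. The 10 genes took 29.9 (Control), 35.5 (IR) and 33.7 (IR+CBD)% of the UMIs of Fcnb cells, so a higher level of these lowers the CPM of all other genes there. With the 10 left out of the total, the median log2 ratio was 0.35. Median depth of the Fcnb cells was 25392, 20986 and 18337 UMIs, and the median Fcnb cell held 977, 976 and 825 Camp UMIs. In UMIs per cell the median of Camp was thus not higher in IR than in Control. In gates set on thinned cells the median log2 ratio over the 10 genes was 0.046, and in non-overlapping gates it was 0.55. The 10 monocyte markers summed to 1307 (Control), 1131 (IR) and 1138 (IR+CBD) CPM in Fcnb cells, and of the 7 with at least 100 UMIs 6 were at least 20% lower in IR, with a median log2 ratio of -2.32. Of the Fcnb cells, 7.59% in Control and 0.909% in IR also passed the monocyte gate. The 10 erythroid markers summed to 281, 1223 and 917 CPM, 4 of 6 were at least 25% higher in IR, and their median log2 ratio was 3.80. None of the 20 markers was at 0, and their part in the ratios was not tested.

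The effect of CBD was examined by setting IR+CBD over IR. In all kept cells 8 of the 10 genes were higher in IR+CBD and 2 were lower, Chil3 at 0.978 (0.967 to 0.989) and Mmp9 at 0.981 (0.959 to 1.00). S100a8 was 1.253 (1.251 to 1.26) times IR, S100a9 1.17 (1.16 to 1.17), Camp 1.14 (1.14 to 1.15), Cd177 1.14 (1.11 to 1.17) and Ngp 1.11 (1.11 to 1.12). The median log2 ratio was 0.14 (-0.03 to 0.22), with an interval that held 0, against -0.0036 over 11431 genes. Of the 10, 1 gene (S100a8) was at least 25% higher, where 1.89% of genes did, and none was at or under 0.8-fold, where 2.53% were. The ratio of S100a8 lay just past that limit. Ltf at 1.02 (1.01 to 1.03) and Mmp8 at 1.02 (0.997 to 1.04) lay near 1.

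The share of Retnlg cells was 1.14 (1.05 to 1.24) times that in IR, of Ly6g cells 1.07 (0.989 to 1.15) times and of Fcnb cells 1.19 (0.991 to 1.43) times, and the last 2 intervals held 1. The 3 gates together held 1.09 times the share of UMIs, and within them the 10 genes summed to 1.07 times their level in IR. S100a8 stood at 1.12 and S100a9 at 1.06 times IR there, and the other genes lay between 0.897 (Mmp9) and 1.04 (Camp). Outside the 3 gates the sum of the 10 was 1.90 times IR, which brought it to 1.06 times Control. In Ly6g cells S100a8 stood at 1.14 (1.14 to 1.15) times IR and S100a9 at 1.08 (1.08 to 1.08), while Chil3 stood at 0.896 (0.884 to 0.907), Mmp9 at 0.933 (0.912 to 0.955) and Ltf at 0.948 (0.940 to 0.957). In Retnlg cells Mmp9 stood at 0.850 (0.831 to 0.870), Mmp8 at 0.878 (0.858 to 0.898), Chil3 at 0.898 (0.883 to 0.913) and Ltf at 0.909 (0.900 to 0.918). The 4 genes lowest in IR+CBD relative to IR were the same in both gates, but the gates share most of their cells. Of the Retnlg cells, 92.2% in IR and 88.6% in IR+CBD also passed Ly6g. None of the 10 was past either fold in either gate, where 5.59% of genes in Ly6g cells and 3.92% in Retnlg cells were. In the Ly6g class without Retnlg, Mmp8 stood at 27.8 (IR) and 37.0 (IR+CBD) CPM and Mmp9 at 94.0 and 101 CPM, both higher in IR+CBD. Chil3 stood at 3694 and 3568 CPM and Ltf at 4178 and 4173 CPM in that class.

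In Fcnb cells 8 of the 10 genes were lower in IR+CBD than in IR, with Chil3 at 0.813 (0.799 to 0.827), Lcn2 at 0.877 (0.868 to 0.886) and Ngp at 0.889 (0.882 to 0.895), and a median log2 ratio of -0.15 (-0.19 to 0.14) against 0.03 over 1130 genes. The other 2 were the metalloproteinases, Mmp9 at 1.10 (0.926 to 1.31) and Mmp8 at 1.75 (1.36 to 2.25), the latter from 99 UMIs in IR and 187 in IR+CBD. Mmp8 was past the fold, where 3.63% of genes with at least 1000 UMIs were, but it did not have 1000 UMIs itself. Of the Fcnb cells, 21.8% in IR and 23.5% in IR+CBD also passed Retnlg. In the Fcnb class without later gates Mmp8 rested on 1 and 10 UMIs in IR and IR+CBD, so its level there could not be compared at this depth. In gates set on cells thinned to 1000 UMIs the direction turned, with a log2 ratio of -1.09 for Mmp8.

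Set over Control, IR+CBD was higher for 10 of 10 genes in all kept cells, from 1.06 (1.04 to 1.07) for Chil3 to 1.27 (1.27 to 1.28) for Camp, with a median log2 ratio of 0.30 (0.18 to 0.31) against -0.04 over 11469 genes. Of the 10, 1 gene (Camp) was at least 25% higher, against a background of 4.94%, and none was at or under 0.8-fold, against 10.2%. The share of Ly6g cells was 1.28 (1.18 to 1.38) times Control and that of Retnlg cells 1.26 (1.16 to 1.37) times. In Ly6g cells the 10 ratios lay between 0.941 for Chil3 and 1.08 for Mmp9, and none passed either fold, where 6.63% of genes did. In Retnlg cells they lay between 0.946 for Mmp8 and 1.10 for Camp, none past either fold against 5.33%. In Fcnb cells Mmp8 and Mmp9 were past the fold at 1.69 and 1.26, both under 1000 UMIs, and the background was 12.7%. Both turned to the other direction in non-overlapping gates, at log2 ratios of -1.57 and -2.43, and Mmp8 also in gates set on thinned cells, at -2.61. The 3 comparisons share libraries, so they are not independent of each other. With cells weighted to the class shares of Control, the median log2 ratios in all cells were -0.10 for IR and -0.0225 for IR+CBD over Control, of opposite sign to the unweighted medians.

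**Figure D5:**
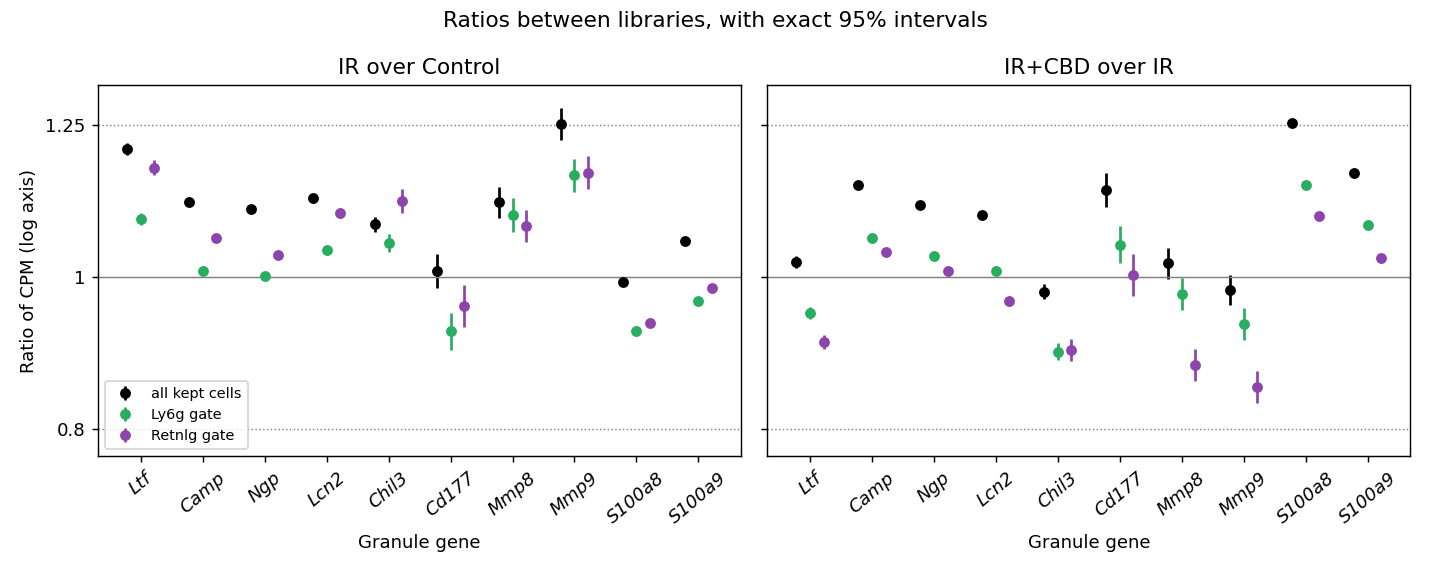
Ratios of CPM for IR over Control (left) and IR+CBD over IR (right) for each granule gene in all kept cells, Ly6g cells and Retnlg cells, on a log axis with exact 95% intervals, where dotted lines mark 25% higher and 20% lower. In the right panel the all-cell ratios of 8 genes lie above 1, and those of Chil3, Mmp8, Mmp9 and Ltf in Ly6g and Retnlg cells lie between 0.850 and 0.975.

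The 2 subunits of calprotectin, which work as a heterodimer, kept a close but not fixed ratio. S100a8 UMIs per S100a9 UMI stood at 0.856 (Control), 0.806 (IR) and 0.867 (IR+CBD) in all kept cells, at 0.881, 0.839 and 0.888 in Fcnb cells, at 0.832, 0.796 and 0.844 in Ly6g cells and at 0.830, 0.788 and 0.839 in Retnlg cells. IR was the lowest library in each, and Control and IR+CBD were closer to each other than to IR. The intervals of IR and of the other libraries did not overlap in these gates. In UMIs per cell, the median Ly6g cell held 1370, 1342 and 1312 S100a8 UMIs and 1645, 1752 and 1595 S100a9 UMIs.

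Other granule genes were followed for context. A list of primary granule genes held 10 genes, not all of which encode granule proteins. Of these, 9 were lower in IR than in Control within Ly6g cells, 8 of them at least 20% lower. The remaining gene was at least 25% higher, and the median log2 ratio of the 10 was -0.44. Their summed level was nevertheless 11568 (Control), 11975 (IR) and 12350 (IR+CBD) CPM in these cells. Of the 10812 genes with 100 UMIs or more in these cells, 9.52% were at least 20% lower and 12.2% at least 25% higher in IR, and 10.6% and 3.96% in IR+CBD over IR. Prtn3 (proteinase 3) was at 0.671 (0.661 to 0.682), Elane at 0.726 (0.710 to 0.742) and Mpo (myeloperoxidase) at 0.778 (0.762 to 0.794), while Lyz2 (lysozyme), which all granule types hold, was at 1.36 (1.35 to 1.37). In IR+CBD over IR 7 of the 10 were higher and none was past either fold. A list of other secondary and tertiary granule genes held 26 genes, not all of which encode granule proteins. Of these, 25 had at least 100 UMIs in these cells, of which 11 were higher and 14 lower in IR, with 2 at least 25% higher and 3 at least 20% lower. The 2 higher genes were Ly6g, which defines the gate, and Lyz2, which is also on the primary granule list. The most lowered of the 25 was Olfm4 (olfactomedin-4, a secondary granule protein of a subset of neutrophils) at 0.568 (0.530 to 0.610). In the same cells 16 of the 25 were higher and 9 lower in IR+CBD than in IR, and 1 (Dgat2) passed the fold.

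Of 14 mature neutrophil genes in Ly6g cells, 7 were higher and 7 lower in IR than in Control, with 1 at least 25% higher, and in IR+CBD 11 were higher and 3 lower than in IR, with 1 at least 25% higher. Retnlg was at 1.15 (1.14 to 1.16) in IR over Control and at 1.09 (1.09 to 1.10) in IR+CBD over IR. Of 12 transcription factors of granulocyte formation, 4 were higher and 8 lower in IR in Ly6g cells, with 1 at least 25% higher and 2 at least 20% lower. Cebpe, which encodes C/EBP epsilon, was highest in Fcnb cells, at 437 (Control), 494 (IR) and 451 (IR+CBD) CPM, against 70.4, 65.9 and 87.2 CPM in Elane cells and 163, 154 and 176 CPM in Retnlg cells. Camp, Ngp, Lcn2 and Chil3 were also highest in this gate in each library, but in the classes without shared cells Ngp and Lcn2 were higher with Retnlg than with Fcnb alone. Within Ly6g cells Cebpe was at 0.917 (0.878 to 0.959) in IR over Control and at 1.11 (1.07 to 1.16) in IR+CBD over IR. Irf7, an interferon-induced factor, was the factor that was over 25% higher in IR, at 5.24 (4.43 to 6.22), and stood at 0.237 (0.204 to 0.275) in IR+CBD over IR.

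Of 8 other S100 genes, 6 had at least 100 UMIs in Ly6g cells, where 2 were higher and 4 lower in IR than in Control. S100a6 was at 1.07 (1.06 to 1.08) and S100a4 at 0.690 (0.592 to 0.803), against 0.923 for S100a8 and 0.965 for S100a9. Of 14 relatives of Chil3 and of the metalloproteinases, 4 had at least 100 UMIs in these cells, 3 of them higher in IR. Chil1, a chitinase-like gene, was at 0.898 (0.856 to 0.942) in IR over Control, where Chil3 was at 1.05. Timp2, an inhibitor of metalloproteinases, was at 1.06 (0.988 to 1.14).

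Likeness of pattern was measured over 18 sums, the 5 gates and the Cd79a cells in 3 libraries, by Pearson's r of log2(CPM + 1) with the mean of the 10 genes after centring. The gates share cells and each library its depth, so r describes these sums only. Outside the 10, the genes most alike among 12165 were Acpp, Chil1, Alox5, Itgb2l, Lrg1, Ankrd22, Fmo5, Ppp1r42, 9830107B12Rik and AA467197, with r between 0.995 and 0.998. Of these, Alox5 encodes 5-lipoxygenase, which starts leukotriene synthesis, and Lrg1 a leucine-rich glycoprotein of neutrophil granules. Lrg1 stood at 535, 501 and 490.3 CPM in the Ly6g cells of Control, IR and IR+CBD and at 23.9, 18.2 and 26.8 CPM in their Cd79a cells. Among the 10 themselves, r was 0.999 for S100a8 with S100a9 and 0.998 for Ngp with Lcn2. It was 0.969 for Mmp8 with Mmp9, and 0.584 for Chil3 with Mmp8, the lowest of the 45 pairs.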

How the data were processed

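According to the study's methods, reads of each droplet library were counted with Cell Ranger 4.0, whereas the headers of the deposited matrices name version 7.0.1. The authors deposited counts of UMIs per gene and cell, without normalization, for called cells only, and the labels name the GRCm39 build. Gene positions and promoters were taken from GRCm38 annotations (GENCODE M21 and RefSeq GRCm38.p6) by gene identifier and symbol, so no coordinate comes from the count files.

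The methods' filters were applied, so a cell needed at least 200 genes and at most 5% of its UMIs from mitochondrial genes. Predicted doublets were kept, since 911, 856 and 844 cells (0.8% per 1000 cells) were removed with Scrublet in scanpy 1.11.5 as an alternative only. UMIs were summed per library and gate and given as CPM (UMIs per 1000000) with exact Poisson 95% intervals. Ratios have exact conditional binomial intervals, shares Clopper-Pearson intervals, and the median over the 10 genes an order-statistic interval over genes. Each condition is 1 library, so no test between conditions was made and no p-value is given. A gene was counted as past the fold when it was at least 25% higher or 20% lower, among genes that reached 1000 UMIs over the pair of libraries. Lists used genes that reached 100 UMIs. Gates set on cells thinned to 1000 UMIs needed at least 3 UMIs of Elane, 3 of Fcnb or 2 of Retnlg, with the cutoffs of the other gates unchanged. The 10 genes, the gates and the lists were chosen with earlier results of these data known. Named genes were the 10, the gate genes, members of the lists with the highest level or the ratio furthest from 1, and the 10 genes most alike in pattern, and a few list members were named after their values were seen for the known role of their product. Interval code was tested on simulated counts. Python 3.11.15, numpy 2.4.6, scipy 1.17.1, pandas 2.3.3 and matplotlib 3.10.9 were used.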

Additional observations from a re-analysis of the deposited data

Results flagged for a closer look

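For several of the 10 genes the ratio between libraries lay on opposite sides of 1 in Fcnb cells and in Retnlg cells, with both counting intervals clear of 1. None of these differences between gates was tested, since each condition is 1 library. In IR over Control, Cd177 stood at 1.17 in Fcnb cells and 0.957 in Retnlg cells, S100a8 at 1.14 and 0.934, and S100a9 at 1.20 and 0.983. In IR+CBD over IR, Camp stood at 0.906 in Fcnb cells and 1.04 in Retnlg cells, Ngp at 0.889 and 1.01, and S100a9 at 0.943 and 1.03. Mmp8 stood at 1.75 in Fcnb cells and 0.878 in Retnlg cells in IR+CBD over IR, and the first value rests on few UMIs.

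Among the barcodes left out for over 5% mitochondrial UMIs, the 10 genes summed to 11570 CPM in IR+CBD, above 8355 CPM in Control and 7334 CPM in IR.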

How the results depend on the processing

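No paired analysis was possible because each condition is 1 library. For the same reason no replicate could be left out. Values here are log2 ratios, apart from percents of cells with a UMI. A change of sign was counted only for medians and shares whose main interval was clear of 0. Over the alternatives tried, 72 medians over the 10 genes stayed within their interval, 12 moved outside it and 3 were counted as changed in sign. For ratios of cell shares these numbers were 60, 11 and 1. Of the percents of Ly6g and Cd79a cells with a UMI after thinning, 39 stayed within their interval and 111 moved outside it. Their alternatives were thinning to 2000 UMIs, removing predicted doublets and, for Cd79a cells, leaving out those in the myeloid gates. Medians and shares with main intervals that held 0 could also cross 0 without being counted. The Ly6g median of IR+CBD over IR, for example, ran from -0.08 to 0.12. A limit of 10% mitochondrial UMIs, a minimum of 1000 genes, and leaving mitochondrial UMIs out of the total moved no median over the 10 genes outside its interval.

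In all cells, the mean of each cell's own share gave medians of 0.32 for IR over Control and 0.38 for IR+CBD over Control, and weighting the cell classes by their Control shares gave -0.10 and -0.0225, both of opposite sign to 0.15 and 0.30. In the Fcnb gate the median for IR over Control was 0.16 without predicted doublets, 0.35 without the 10 genes in the total, 0.55 in non-overlapping gates and 0.046 in gates set on cells thinned to 1000 UMIs. That for IR+CBD over IR was -0.19 without the 10 genes in the total, -0.35 in non-overlapping gates and -0.21 in thinned gates, and that for IR+CBD over Control was -0.079 in thinned gates. In non-overlapping gates the Ly6g medians were 0.12 for IR+CBD over IR and 0.11 for IR+CBD over Control, and in thinned gates the Retnlg median was 0.22 for IR over Control.

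In the Fcnb gate, Mmp8 in IR+CBD over Control was -1.57 in non-overlapping gates and -2.61 in thinned gates, Mmp8 in IR+CBD over IR was -1.09 in thinned gates, and Mmp9 in IR+CBD over Control was -2.43 in non-overlapping gates, all from few UMIs. Thinned gates gave ratios of cell shares of 0.83 (IR over Control) and 1.15 (IR+CBD over Control) for Fcnb and of 0.69, -0.10 (IR+CBD over IR) and 0.59 (IR+CBD over Control) for Ly6g. They also turned the monocyte share of IR+CBD over IR to 0.17. At least 2 Ly6g UMIs gave 0.38 for the Ly6g share of IR over Control. The thinned gates for Elane, Fcnb and Retnlg had other cutoffs as well as equal depth, and the cause of these moves was not tested. Of the ratios of single genes, 405 stayed within their counting interval, 461 moved outside it and 4 were counted as changed in sign. That count covers only ratios past the fold with an interval clear of 0, so other ratios could cross 0 uncounted.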
